A study of Homo sapiens with 2 samples.

Results

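ZFX binding on chromosome 19 was described for the 975 of 14471 deposited peaks that lie on that chromosome, 6.74% of the list. They come from chromatin immunoprecipitation and sequencing (ChIP-seq) with a rabbit polyclonal antibody against ZFX in the human medulloblastoma line DAOY, an established line. GEO lists 2 samples, the ZFX precipitation and an input of sheared chromatin that was not precipitated, with 1 library each. Both samples are the same unmodified line without a stated treatment, and the input was not analysed here. Of the 975 peaks, 147 had their midpoint in 1 of 6 intervals that hold the large clusters of KRAB zinc finger genes of the chromosome, and the other 828 made up the rest. The intervals, on the hg19 build, run from 11.7 to 12.7 Mb, 19.8 to 24.5 Mb, 36.7 to 38.4 Mb, 44.3 to 45 Mb, 52.3 to 54 Mb and 56 to 59.1 Mb. They are defined by position and not by peak values, though they were chosen with earlier results of these data known. With 1 library there was no replicate, so no difference below was tested, and the precision of single peaks is unknown because no read depth was at hand.

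ZFX is a transcription factor with a row of zinc fingers, encoded on the X chromosome, and is known to bind mainly at promoters that are rich in CpG, close to the start of transcription. KRAB zinc finger proteins are a large family of mostly repressive transcription factors that share a Kruppel-associated box and arrays of zinc fingers. Many of them bind retrotransposons and recruit the corepressor TRIM28, which leads to methylation of lysine 9 of histone H3. Their genes arose by repeated tandem duplication and lie side by side in clusters. Chromosome 19, taken as a whole, is the most gene-dense human chromosome.

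The clustering can be read from the gene order. Among 1451 protein-coding genes placed on chromosome 19 in the RefSeq table (GRCh38.p14), 265 (18.3%) carry a symbol of the zinc finger series (ZNF, ZFP, ZSCAN, ZKSCAN, ZIM or ZIK), against 304 of 18605 (1.63%) elsewhere. Of these 265 genes, 213 stand in 18 runs of 5 or more direct neighbours, and 118 in 5 runs of 20 or more. The longest run holds 27 genes, from ZNF737 to ZNF681. The next are the runs from ZNF565 to ZNF793 and from ZNF627 to ZNF791 with 24 genes each, from ZNF772 to ZNF256 with 23 and from ZNF283 to ZNF180 with 20. A symbol shows membership of the zinc finger series and not the presence of a KRAB domain. Gene order was used here without positions, since the table and the peaks are on different builds, so the zinc finger content of the hg19 intervals was not checked and no peak is assigned to a gene.

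To show where a ZFX motif can stand in such a promoter, 1 was picked from each of the 4 longest runs, namely the one with the most copies of AGGCCT in the 250 bases before the gene's start (the first in gene order where tied). Most promoters of these runs lack it there. It was held by 4 of 21 promoters in the run of ZNF714, 2 of 23 in that of ZNF627, 6 of 23 in that of ZNF146 and 2 of 20 in that of ZNF776. AGGCCT, which reads the same on both strands, is the core of the DNA motif known for ZFX. Sequences are from RefSeq (GRCh38.p14), 5′ to 3′ on the strand of the gene, and the capitals mark AGGCCT.
ZNF714, chr19:21081953-21082202, + strand: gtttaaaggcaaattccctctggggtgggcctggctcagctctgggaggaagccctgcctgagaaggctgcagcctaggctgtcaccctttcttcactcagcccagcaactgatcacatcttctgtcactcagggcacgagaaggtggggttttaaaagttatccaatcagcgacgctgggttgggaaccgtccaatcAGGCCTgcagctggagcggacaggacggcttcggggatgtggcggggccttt
ZNF627, chr19:11597233-11597482, + strand: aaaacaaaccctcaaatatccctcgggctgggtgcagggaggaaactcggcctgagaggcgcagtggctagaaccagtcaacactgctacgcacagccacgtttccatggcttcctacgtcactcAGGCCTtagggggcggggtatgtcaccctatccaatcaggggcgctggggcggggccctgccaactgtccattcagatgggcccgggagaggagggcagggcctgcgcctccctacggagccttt
ZNF146, chr19:36214856-36215105, + strand: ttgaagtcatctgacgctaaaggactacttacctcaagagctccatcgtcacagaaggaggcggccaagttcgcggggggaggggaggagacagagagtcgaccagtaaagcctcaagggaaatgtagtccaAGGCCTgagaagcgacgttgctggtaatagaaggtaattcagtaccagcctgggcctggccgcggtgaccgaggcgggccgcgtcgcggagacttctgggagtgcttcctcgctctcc
ZNF776, chr19:57746565-57746814, + strand: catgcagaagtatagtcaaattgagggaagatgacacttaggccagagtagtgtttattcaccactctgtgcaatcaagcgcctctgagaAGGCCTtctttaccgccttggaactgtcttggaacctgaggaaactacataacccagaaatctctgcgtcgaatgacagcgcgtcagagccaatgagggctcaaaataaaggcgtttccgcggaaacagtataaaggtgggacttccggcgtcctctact

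In ZNF714 the motif begins 52 bases before the gene's start, in ZNF146 118 bases, in ZNF627 125 bases and in ZNF776 160 bases. Among the promoters of the runs of 5 or more genes, 40 of 183 with an entry (21.9%, exact 95% interval 16.1% to 28.6%) held AGGCCT within the 300 bases from 250 before to 50 after the start. Genes of chromosome 19 with such a symbol outside these runs held it in 5 of 46 (10.9%, 3.62% to 23.6%). Other protein-coding genes of chromosome 19 that carry no such symbol held it in 114 of 956 (11.9%, 9.94% to 14.1%). Over all chromosomes the share was 1747 of 15843 protein-coding promoters (11.0%). The median GC content was 59.3% in the runs and 64% in the 956 other promoters, with a median of 20 and 21 CpG. Neighbours in a run are copies of one another, so their promoters are not independent and the interval is too narrow. These letters describe the promoters, and whether ZFX lies on them in DAOY was not measured by this count.

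Peaks were sparser in the zinc finger clusters than in the rest of chromosome 19. The clusters held 147 peaks in 12.9 Mb, or 11.4 per Mb, and the rest held 828 in 45.9 Mb, or 18.0 per Mb. The clusters therefore had 21.9% of the span between the outermost peaks but 15.1% of the peaks (exact 95% interval 12.9% to 17.5%), a density ratio of 0.632 (0.527 to 0.755). This interval covers counting error and treats peaks as independent, although peaks lie close together. Counting as 1 region all peaks at most 1 kb apart left 127 regions in the clusters and 643 in the rest, and the ratio was 0.704. The whole list had 4.93 peaks per Mb, by the spans between the outermost peaks of each chromosome. The clusters together were thus sparser than the rest of this chromosome, but denser than the list.

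The 6 clusters were unlike each other, from 4.29 to 20.1 peaks per Mb. The cluster next to the centromere, from 19.8 to 24.5 Mb, held 23 peaks in 4.7 Mb, or 4.89 per Mb. The small one from 44.3 to 45 Mb held 3 peaks in 0.7 Mb, or 4.29 per Mb. Both values lie near the 4.93 per Mb of the whole list. Intermediate values were found from 36.7 to 38.4 Mb with 19 peaks (11.2 per Mb), from 52.3 to 54 Mb with 25 (14.7 per Mb) and from 11.7 to 12.7 Mb with 15 (15 per Mb). The cluster at the end of the long arm, from 56 Mb to the last peak, held 62 peaks, or 20.1 per Mb. That is above the mean of the rest, and 5 of the 6 clusters lay below it. Without the cluster from 19.8 to 24.5 Mb the density ratio was 0.840 (0.690 to 1.02), and without the one at the end of the long arm it was 0.481 (0.380 to 0.602). With both left out, a setting added after values had been seen, the other 4 clusters gave 0.674 (0.512 to 0.873), near the ratio of all 6.

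The rest of the chromosome varied as widely. Its 6 segments between clusters ranged from 5.41 to 25.4 peaks per Mb. The segment from the first peak to 11.7 Mb held 290 peaks (25.4 per Mb), and the one from 12.7 to 19.8 Mb held 170 (23.9 per Mb). Lowest was the segment from 24.5 to 36.7 Mb, where 66 peaks gave 5.41 per Mb. It includes most of the longest peak-free stretch of the chromosome, 3.46 Mb from 24270336 to 27732942, where the centromere is known to lie. Leaving that stretch out of the length of the rest gave a density ratio of 0.588.

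The density ratio was lower on the short arm, taking the peak-free stretch as the border of the arms. On the short arm, 38 peaks in the clusters gave 6.95 per Mb and 460 in the rest gave 24.9 per Mb, a ratio of 0.280 (0.195 to 0.390). On the long arm, 109 peaks in the clusters gave 15.2 per Mb and 368 in the rest also gave 15.2 per Mb, a ratio of 0.996 (0.797 to 1.24). The intervals of the ratios do not overlap, and the difference between the arms was not tested. The sparse segment beside the centromere belongs to that long-arm rest. From 36.7 Mb onward, a limit set after these values had been seen, the clusters had 15.2 peaks per Mb and the rest 19.9, a ratio of 0.763 (0.607 to 0.953).

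**Figure D1:**
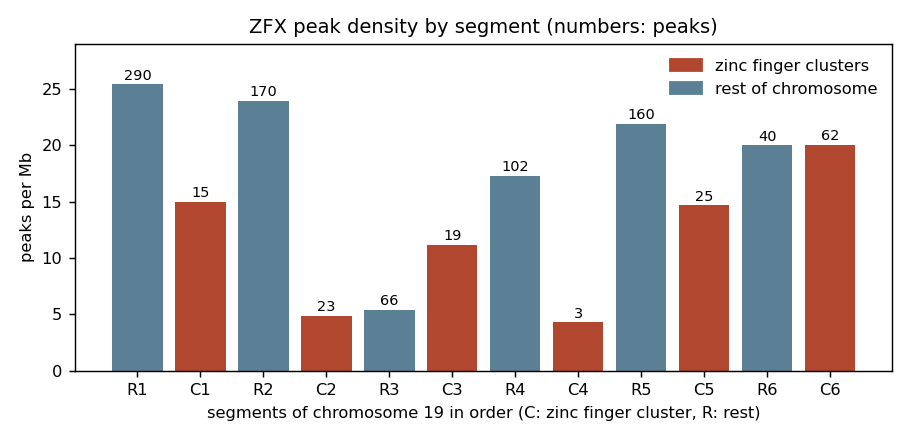
Peaks per Mb (bars, from 0) in the 12 successive segments of chromosome 19, ordered from the end of the short arm, with the number of peaks above each bar. Clusters C2 and C4 stand lowest among clusters at 4.89 and 4.29 per Mb, C6 reaches 20.1, and the segment R3 that holds the centromere has 5.41.

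Spacing separated the clusters from the rest more sharply than density. The distance from a peak to its nearest neighbour had a median of 22.6 kb in the clusters (exact order-statistic 95% interval 19.4 to 29.4 kb) and 3.48 kb in the rest (2.64 to 4.67 kb). A neighbour within 10 kb was found for 48 of 147 peaks in clusters (32.7%, exact 95% interval 25.2% to 40.9%) and for 522 of 828 in the rest (63.0%, 59.7% to 66.3%). In the whole list the median distance was 14.4 kb and the share 46.0%. Neighbouring peaks share these distances, so they are not independent and the intervals of the medians and shares are too narrow. Within 1 kb the shares were 25.9% (38 peaks) and 40.2% (333 peaks), and 32.1% in the whole list. The clusters thus lay below the whole list by both distances and the rest above it.

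By median nearest distance and share with a neighbour within 10 kb, point values of the 6 clusters lay apart from those of the rest's 6 segments. The 10 kb distance and the division into segments were chosen after values had been seen. Median nearest distances were 14.9 to 91.3 kb in clusters and 1.20 to 9.43 kb in segments of the rest, and shares with a neighbour within 10 kb were 0% to 43.5% and 51.5% to 77.5%. Neither pair of ranges overlaps. At 1 kb they did, since the cluster from 11.7 to 12.7 Mb had 40% of its peaks within that distance, more than the segments up to 11.7 Mb (36.9%) and from 24.5 to 36.7 Mb (36.4%). The other 5 clusters had 0% to 30.6%, and the segments of the rest 36.4% to 50%. The cluster at the end of the long arm had more peaks per Mb than the mean of the rest. Its median of 14.9 kb was longer than in the rest but near the 14.4 kb of the whole list. On the long arm the median distance was 20.7 kb in the clusters and 3.48 kb in the rest, and 33.9% against 60.9% had a neighbour within 10 kb. Density was equal over the whole arm, but not where most of these peaks lie. From 36.7 Mb onward, with 302 of the 368 peaks of the rest, it was 15.2 per Mb in clusters and 19.9 in the rest. The short arm gave 30.1 kb and 3.61 kb, with 28.9% against 64.8%.

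**Figure D2:**
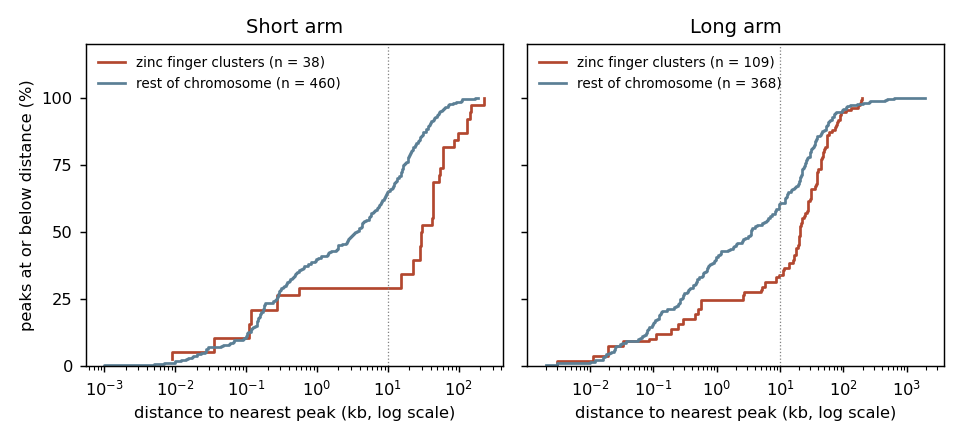
Cumulative share of peaks (%) by distance to the nearest peak (kb, log scale) on the short and long arm, for clusters (red) and the rest (blue), with a dotted line at 10 kb. At that line the cluster curves stand at 28.9% and 33.9% and the curves of the rest at 64.8% and 60.9%.

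Between separate regions, after joining peaks at most 1 kb apart, gaps were measured where both sides lay in the same segment. The 121 gaps in clusters had a median of 47.8 kb with quartiles of 22.2 and 90 kb, and the 637 in the rest a median of 31.7 kb with quartiles of 11.9 and 72.1 kb. Gaps of 10 kb or less made up 7.44% (9 gaps) in clusters and 23.1% (147) in the rest. Those from 10 to 100 kb made up 70.2% and 60.3%, and longer ones 22.3% and 16.6%. The upper quartile was 4.05 times the lower in clusters and 6.06 times in the rest, so the gaps in clusters were longer and, relative to their size, less spread. Gene positions were not used, so these distances were not compared with those between zinc finger genes.

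Runs of adjacent peaks were also rarer in clusters than in the rest. Of the 127 joined regions in clusters, 109 held 1 peak, 16 held a pair and 2 held 3, so that 14.2% had more than 1. Of the 643 in the rest, 118 held a pair and 30 held 3 or more, 23.0% in all. In the whole list the share with more than 1 peak was 17.9%, between the share in clusters and that in the rest. The largest in the clusters were a region of 1682 bp from 58897314 to 58898995 and one of 1461 bp from 24183615 to 24185075, with 3 peaks each. In the rest a region of 5910 bp from 12899360 to 12905269 held 6 peaks and one of 5043 bp from 13261080 to 13266122 held 4. They begin 0.199 and 0.561 Mb past the end of the cluster at 12.7 Mb.

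Long empty stretches lay in the cluster from 19.8 to 24.5 Mb. After the centromeric one, the longest on the chromosome was 1.97 Mb from 27733555 to 29703250 in the rest. The third and the fourth, 1.26 Mb from 22034912 to 23299674 and 1.13 Mb from 19977076 to 21105916, were both inside this cluster. In windows of 100 kb, 33 of its 47 (70.2%, exact 95% interval 55.1% to 82.7%) held no peak. Over all clusters 60 of 129 windows (46.5%, 37.7% to 55.5%) were empty, against 171 of 460 (37.2%, 32.7% to 41.8%) in the rest, or 32.5% without windows inside the centromeric stretch. In the other clusters the longest stretch between regions was 237 to 595 kb, the longest of these from 57107127 to 57702505. Occupied windows held 2.13 peaks on average in clusters and 2.87 in the rest.

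Windows with 5 peaks or more numbered 5 in the clusters (3.88%) and 47 in the rest (10.2%). All 5 belonged to the cluster at the end of the long arm, where they held 56.5% of its peaks. The fullest, with 10 peaks, lay from 56.1 to 56.2 Mb, and 3 stood side by side from 58.8 to 59.1 Mb. In the rest the fullest lay from 13.9 to 14 Mb with 13 peaks and from 1.2 to 1.3 Mb with 11. In windows of 1 Mb that lie wholly in a cluster (9 windows), counts ran from 0, between 20 and 21 Mb, to 31, between 58 and 59 Mb, with a median of 10. The 42 windows wholly in the rest had 0 (3 windows) to 46, between 1 and 2 Mb, with a median of 16, so single windows overlap widely.

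**Figure D3:**
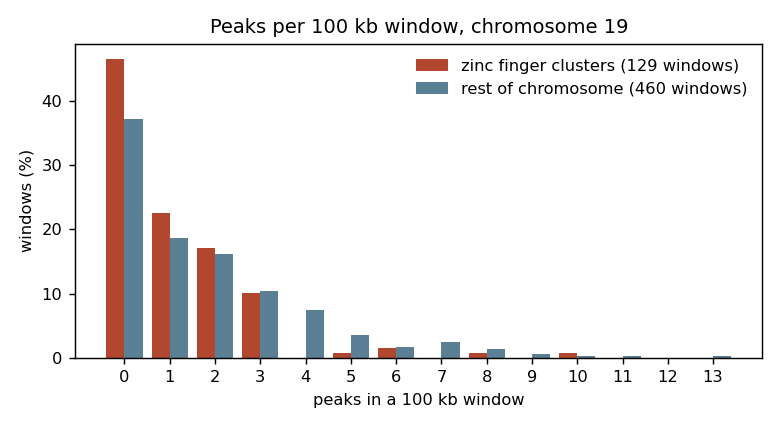
Share of 100 kb windows (%, from 0) by the number of peaks they hold, for 129 windows in clusters (red) and 460 in the rest (blue). Empty windows make up 46.5% and 37.2%, and windows with 5 peaks or more 3.88% and 10.2%.

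Pooled over the clusters, peaks had a higher median score, but not in each cluster. The score is the authors' own value for each peak, without a stated unit, and is compared here within the list. Its median was 130 in clusters (exact order-statistic 95% interval 111 to 144) and 106 in the rest (99.4 to 118), against 108.9 in the whole list. The intervals overlap. Medians of the single clusters ran from 98.2 and 103, in those from 11.7 to 12.7 Mb and from 52.3 to 54 Mb and below that of the rest, to 361 over the 3 peaks from 44.3 to 45 Mb. On the long arm the medians were 122 and 112, a difference of 10.4 (-12.8 to 33.9), and on the short arm 140 and 103, a difference of 37.4 (3.73 to 73.6). The intervals of these differences take the median of the rest as fixed and leave out its error. The short-arm medians' own intervals, 106 to 176 in clusters and 91.8 to 118 in the rest, overlap. Quartiles were 73.5 and 242 in clusters and 64.0 and 228 in the rest. By score, 25 of 147 cluster peaks (exact 95% interval 11.3% to 24.1%) and 217 of 828 in the rest (26.2%, 23.2% to 29.3%) were in the lowest of 4 score classes that each hold 25% of the peaks of the list. The third class held more of the cluster peaks, 47 of 147 (32.0%) against 191 of 828 (23.1%). The shares in the second class were 23.8% and 24.9%, and those in the highest class 27.2% (40 peaks) and 25.8% (214 peaks). When each joined region was given the highest score of its peaks, the medians were 138 and 128.

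The density ratio varied with the score. In the lowest score class the clusters had 1.94 peaks per Mb and the rest 4.73, a ratio of 0.410. The ratio was 0.605 in the second class, 0.877 in the third, with 3.65 and 4.16 peaks per Mb, and 0.666 in the highest, with 3.10 and 4.66. The share of chromosome 19 peaks that lay in clusters was 10.3% (exact 95% interval 6.80% to 14.9%) in the lowest class and 19.7% (14.9% to 25.4%) in the third. Shares in the second and the highest class, 14.5% and 15.7%, lay between these.

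Median widths differed by 15 bp. The median peak was 488 bp wide in clusters (420 to 557 bp) and 473 bp in the rest (456 to 493 bp), with upper quartiles of 653 and 681 bp. Within score classes, peaks in clusters were narrower in 3 of the 4. Medians were 285 against 295 bp in the lowest, 377 against 413 bp in the second and 772 against 827 bp in the highest. The order was turned in the third, with 561 against 553 bp. These medians rest on 25, 35, 40 and 47 cluster peaks, in that order, and the differences were not tested. The classes are broad, the highest running from 223 to 3233, so score is only roughly alike within them. Width and score had a Spearman correlation of 0.768 over the 147 peaks of the clusters and 0.866 over the 828 of the rest, which are not independent points.

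**Figure D4:**
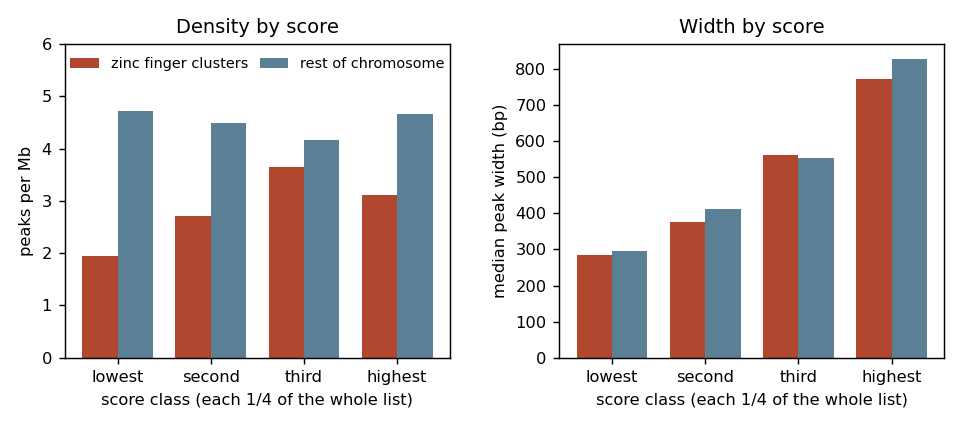
Peaks per Mb (left) and median peak width in bp (right), both from 0, by score class of the whole list, for clusters (red) and the rest of chromosome 19 (blue). Density differs most in the lowest class, 1.94 against 4.73 per Mb, and widths within a class differ by 55 bp at most.

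In the clusters, peaks with a close neighbour had a lower median score, a difference that was not tested. There the 38 peaks with a neighbour within 1 kb had a median score of 103 and a median width of 342 bp, and the 109 without one had 135 and 533 bp. In the rest the 333 close peaks (106, 475 bp) and the 495 isolated peaks (106, 470 bp) did not show this. From the lowest to the highest score class, 32%, 31.4%, 21.3% and 22.5% of cluster peaks were close, on 8, 11, 10 and 9 peaks. Isolated peaks numbered 8.46 per Mb in clusters and 10.8 in the rest, a ratio of 0.784, and close peaks 2.95 and 7.25, a ratio of 0.407. The shares with a neighbour within 10 kb were lower in clusters in each score class, from 52% against 64.5% in the lowest to 23.4% against 67.0% in the third.

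The strongest peaks of the clusters lay at the end of the long arm. A peak from 57791089 to 57792700, the widest of all clusters with 1612 bp, scored 1946.67 and stood 20.5 kb from the next. Another from 58513438 to 58514684 scored 1541.7 over 1247 bp, 54.4 kb from its neighbour, and the next from 59030409 to 59031825 scored 1055.15 over 1417 bp. No other cluster reached a score of 1000, which 18 peaks of the rest did (2.17%, against 2.04% in clusters). The highest in the other clusters were 905.58 over 940 bp (36705545 to 36706484), 758.13 over 1241 bp (52551619 to 52552859), 462.85 over 525 bp (12273850 to 12274374) and 366.46 over 593 bp (44439029 to 44439621). Each of these 4 stood 19.9 to 169 kb from its nearest neighbour.

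The cluster next to the centromere was an exception. Its highest scores, 600.3 over 168 bp (24184908 to 24185075) and 565.44 over 175 bp (24183615 to 24183789), belong to very narrow peaks. The peak between them, of 290 bp, scored 412.71. These are the 3 peaks of chromosome 19 that are at most 300 bp wide and score in the highest class, out of 169 peaks of that width there, and the whole list holds 22 such peaks among 2401. They form 1 group of 3 within 1461 bp, 85.3 kb before the peak-free stretch that contains the centromere. The sequence there was not analysed here. The other 20 peaks of this cluster were 211 to 833 bp wide.

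In the rest, the score of 3100 was shared by 3 peaks, from 18942632 to 18943834 (1203 bp), from 4064861 to 4066009 (1149 bp) and from 48893579 to 48894689 (1111 bp). Peaks from 16738068 to 16738941 and from 47615081 to 47616557 followed with 2905.33 and 2215.82. The highest score in the clusters was thus below the 5 highest of the rest, which holds 5.6 times as many peaks. The widest peak of the chromosome, 5347 bp from 13949343 to 13954689, also lay in the rest and in the fullest window.

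At the borders of the intervals, peaks were counted in the 100 kb on each side. The last border lies at the end of the list, with no peak beyond it. Over the other 11, 15 peaks lay inside and 23 outside, with more outside at 5 borders and fewer at 2. The cluster from 44.3 to 45 Mb began with an empty stretch, its first peak at 44439029 to 44439621 being 169 kb from the last one before it. At the lower border of the cluster from 56 Mb on, 6 peaks lay just outside and 2 just inside. With every border moved inward by 200 kb the density ratio was 0.514 (0.413 to 0.634), and with every border moved outward it was 0.697.

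Chromosome 19 was denser than chromosomes 17 and 22, the only others set beside it here. Per Mb there were 16.6 peaks on chromosome 19, 11.6 on chromosome 17 and 10.9 on chromosome 22. The share with a neighbour within 10 kb was 58.5% (exact 95% interval 55.3% to 61.6%) on chromosome 19, 53.9% (50.7% to 57.1%) on chromosome 17 and 54.8% (49.5% to 59.9%) on chromosome 22. These intervals overlap. Its zinc finger clusters, at 11.4 peaks per Mb, were about as dense as those chromosomes as wholes, yet 32.7% of their peaks had a neighbour within 10 kb. Median scores were 111, 109 and 101 and median widths 475, 464 and 436 bp on chromosomes 19, 17 and 22.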

How the data were processed

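ZFX ChIP-seq was measured in 1 DAOY library, with 1 input library that was not analysed here. Bowtie2 2.0.0 and hg19 stand in the submitters' processing notes, with no role given for either. The authors deposited a peak list without a header, whose peak names carry the name MACS. For the caller's version, threshold and control no source was at hand. Column 5 is a score per peak, deposited without a unit, with a lowest value of 50, so weaker sites cannot be counted. How reads that match several copies of a sequence were treated is not stated, which bears on duplicated genes. Starts were taken as counted from 0 and are printed counted from 1.

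Peaks were placed by midpoint. Distances run between the ends of neighbouring peaks of chromosome 19, also across borders. Density used the span between the outermost peaks. Shares have exact Clopper-Pearson intervals, medians exact order-statistic intervals, and both cover counting error within 1 library. Both treat peaks as independent. The density ratio's interval follows from that of the share. An interval of a difference in score, width or close neighbours is that of the clusters minus the point value of the rest. It leaves out the error of the rest and is too narrow. The members, measures and lists were chosen with earlier results of these data known. Regions were named by a fixed rule, namely the highest score of each cluster, the 5 highest of the rest, the widest peaks, the largest joined regions, the longest stretches, the extreme windows and the peaks at borders. The other peaks given for the cluster next to the centromere and the end of the long arm, the 300 bp limit, the division into segments and the 10 kb distance were chosen after values had been seen. The density ratio's calculation was checked on 200 simulated lists of 1000 peaks with a true ratio of 0.5, of which 191 had an interval that held it. Simulated peaks were placed independently, whereas the real ones lie close together, so the check does not show that the interval holds for the real list. Gene symbols and promoters were taken from RefSeq tables on GRCh38.p14, of which 1185 of the 1451 protein-coding genes of chromosome 19 had a promoter entry. Sequence and genes at the peaks were not analysed here. Software was matplotlib 3.10.9, pandas 2.3.3, scipy 1.17.1, numpy 2.4.6 and Python 3.11.15.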

Additional observations from a re-analysis of the deposited data

How the results depend on the processing

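Of 54 alternatives for the 4 comparisons, 44 stayed within the counting interval of the reported value and 10 left it. Of the 54, 8 were added after the data had been seen. The density ratio of 0.632 became 0.765 among peaks above the median score, 0.514 with clusters narrowed by 200 kb, 0.280 on the short arm, 0.996 on the long arm, 0.763 on the long arm from 36.7 Mb (added), 0.840 without the cluster from 19.8 to 24.5 Mb and 0.481 without the cluster from 56 Mb on. The difference in median width, 15 bp wider in clusters with an interval that includes 0, was -57 bp among peaks above the median score. The share of peaks with a neighbour within 1 kb was lower in clusters by 14.4 percentage points. The difference was -25.2 points at 5 kb and -30.4 points at 10 kb (added). A longer distance cannot lower either share, but it does not set their difference. The share stayed lower in clusters in all 15 alternatives, by 10.8 points or more. That smallest difference, on the short arm (added), had an interval of -24.4 to 6.12 that includes 0. The cause of the changes was not tested. The median score was higher in clusters in all 12 alternatives, by 9.19 to 37.4, but the interval of the difference included 0 with joined peaks, on the long arm, and without the cluster from 19.8 to 24.5 Mb or that from 56 Mb on. The intervals of differences leave out the error of the rest and are too narrow, so one that excludes 0 is no test. No paired analysis was possible because the study has 1 library for each group and no replicate numbers. Read depth is unknown, so sparse weak peaks in the clusters cannot be told apart from sites below the threshold of the list.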
